A study of Mus musculus with 11 samples.

Results

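The proteasome of mouse macrophages was followed through 48 genes, those of 42375 named genes in the count table whose symbol is Psm, a letter from a to g and a number. These are the subunits of the 20S core particle, the subunits of the 19S cap, the activators, an inhibitor and the assembly chaperones. The cells were C57BL/6 bone marrow derived macrophages (BMDM) that had received a gapmer, a short DNA-based oligonucleotide whose pairing with an RNA leads to its cutting by RNase H, for 16 hours. The 4 groups were M1 cells with the gapmer against the noncoding RNA MERRICAL (M1 KD, 2 libraries), M1 cells with the gapmer labelled NS (M1 NS, 3 libraries), M0 cells with the MERRICAL gapmer (M0 KD, 3 libraries) and M0 cells with the NS gapmer (M0 NS, 3 libraries). The M0 and M1 labels name a resting and an inflammatory macrophage state, and what was given to the cells to make them M1 is not stated here. The level of MERRICAL was not analysed here.

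The proteasome is the protease that degrades proteins tagged with ubiquitin. Its core is a barrel of alpha and beta rings with the active sites inside, and the cap, made of ATPases and of subunits without ATPase activity, recognises, unfolds and feeds in the substrate. In macrophages interferon induces 3 alternative catalytic subunits, Psmb8, Psmb9 and Psmb10, which take the places of Psmb5, Psmb6 and Psmb7 in newly built cores. This immunoproteasome, with the activator formed by Psme1 and Psme2, favours peptides that fit MHC class I molecules.

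The stretches before the RefSeq starts of the catalytic genes are shown because these genes moved together between the states while sharing no single one of the searched motifs. They are 250 bases long, read 5′ to 3′ on the gene's strand (RefSeq, build GRCm38.p6), and capitals mark a match on either strand to the interferon-gamma site TTCNNNGAA in Psmb8 and to the antioxidant-type core TGACNNNGC in Psmb5 and Psmb6. The table had no window for Psmb7. The stretches lie at chr17:34197945-34198194 (plus strand) for Psmb8, chr17:34187331-34187580 (minus) for Psmb9, chr8:105938393-105938642 (minus) for Psmb10, chr14:54617996-54618245 (minus) for Psmb5 and chr11:70525107-70525356 (plus) for Psmb6.
Psmb8: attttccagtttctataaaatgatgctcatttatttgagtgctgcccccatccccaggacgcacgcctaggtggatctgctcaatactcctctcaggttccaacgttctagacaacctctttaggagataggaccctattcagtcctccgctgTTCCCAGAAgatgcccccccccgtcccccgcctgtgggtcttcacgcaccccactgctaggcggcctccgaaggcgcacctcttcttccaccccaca
Psmb9: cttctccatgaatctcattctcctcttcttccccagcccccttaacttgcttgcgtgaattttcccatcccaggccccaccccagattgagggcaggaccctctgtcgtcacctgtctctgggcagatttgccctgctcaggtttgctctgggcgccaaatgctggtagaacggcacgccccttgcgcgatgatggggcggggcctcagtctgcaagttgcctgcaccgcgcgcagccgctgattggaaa
Psmb10: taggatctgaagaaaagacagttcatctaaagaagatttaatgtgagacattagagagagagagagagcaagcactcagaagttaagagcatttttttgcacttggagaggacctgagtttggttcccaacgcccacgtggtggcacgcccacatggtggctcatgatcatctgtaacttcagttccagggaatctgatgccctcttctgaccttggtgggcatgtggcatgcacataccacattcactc
Psmb5: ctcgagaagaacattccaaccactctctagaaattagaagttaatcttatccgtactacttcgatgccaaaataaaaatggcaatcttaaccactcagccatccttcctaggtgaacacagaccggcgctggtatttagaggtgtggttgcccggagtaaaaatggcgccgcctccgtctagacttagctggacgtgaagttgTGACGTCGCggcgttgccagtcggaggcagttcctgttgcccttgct
Psmb6: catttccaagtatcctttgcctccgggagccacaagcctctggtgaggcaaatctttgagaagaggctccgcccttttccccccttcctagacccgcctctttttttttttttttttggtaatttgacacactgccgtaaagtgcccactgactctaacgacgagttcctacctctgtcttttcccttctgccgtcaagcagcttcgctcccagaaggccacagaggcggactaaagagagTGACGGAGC

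The Psmb8 match begins 97 bases before the start, that of Psmb5 47 bases before it and that of Psmb6 9 bases before it. Psme1 carried the reverse of the interferon-stimulated core (GAAA, any 2 bases, GAAA) from position 10 after its start, in capitals within the 30 bases at chr14:55578493-55578522 (plus), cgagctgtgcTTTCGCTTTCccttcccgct. Over windows of 300 bases, which end 50 bases after the start, the interferon-gamma site was present in 8.3% of 32851 windows of all genes, the interferon-stimulated core in 3.44% and the antioxidant-type core in 12.4%. Of the 40 members with such a window, 3 held the first, 5 the second and 6 the third motif. Besides Psmb8, the first lay in Psmd2 and Psmg1. Besides Psme1, the second lay in Psmb3, Psmd4, Psmd9 and Psmg4. The windows of Psme2, Psmb9 and Psmb10 held none of the motifs. Whether a match goes with a change in level was not tested. A match is only a run of letters, the motifs do not overlap in these stretches, and GENCODE M21 places the outermost starts of Psmb8, Psmb9 and Psme1 upstream of the RefSeq start.

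Each library held between 30040632 and 43250392 counts. Of the members, 47 passed the filter on low counts and Psmb11, a thymus-specific subunit, did not, with at most 2 counts in any library. Psma8, a testis-specific alpha subunit, passed with 9 to 77 counts, and every other tested member had at least 132 counts in each library. A level in CPM is a raw count divided by the effective library size, which TMM factors adjust, on a scale shared by all libraries. All 9 macrophage markers were detected in each group, and their summed level was 15030 to 18160 CPM in M1 KD, 13840 to 16030 CPM in M1 NS, 19460 to 21270 CPM in M0 KD and 25830 to 27200 CPM in M0 NS. Between M1 NS and M0 NS the markers split, with 5 of 9 called higher and 3 lower, a median log2 fold change of 0.67, and the sum set mainly by Lyz2, at 5639 ± 687 CPM in M1 NS and 17460 ± 1224 CPM in M0 NS (SD, n = 3 each). In M1 KD against M1 NS they split too, with 2 of 9 called higher and 2 lower and a median of -0.01. Of all tested genes 17.6% were called higher there and 19.2% lower. Mitochondrial genes took 0.522% and 0.727% of counts in M1 KD, 0.488% to 0.891% in M1 NS, 1.275% to 1.45% in M0 KD and 1.02% to 1.14% in M0 NS. These shares did not overlap between M1 NS and M0 NS or between M0 KD and M0 NS, and their part in the results was not tested. In bulk RNA, fewer cells of a type and less RNA per cell cannot be told apart. Nothing states that the libraries of a group are separate cultures, so p-values measure only the spread between them, which may be technical.

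Proteasome genes rose almost throughout in M1 NS against M0 NS. The 48 members together made up 0.878% to 0.920% of all counts in M1 KD, 0.847% to 0.932% in M1 NS, 0.420% to 0.436% in M0 KD and 0.433% to 0.441% in M0 NS. By edgeR's quasi-likelihood test over 15024 genes, with a gene called where its Benjamini-Hochberg adjusted p was under 0.05, 43 of the 47 tested members were called higher in M1 NS and 1 lower, where 26.9% of all tested genes were called higher and 28.6% lower. The median log2 fold change of the members was 1.12, against -0.04 for all genes tested. With scaling by library size alone, which moved the median of all genes to -0.42, the members' median was 0.74, and the share of called genes that were higher was 26.7%, against 48.5% with TMM factors. The M1 NS libraries all lay above all M0 NS libraries for 43 members and all below them for 1, where 28.6% of all genes lay above and 32.8% below.

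**Figure D1:**
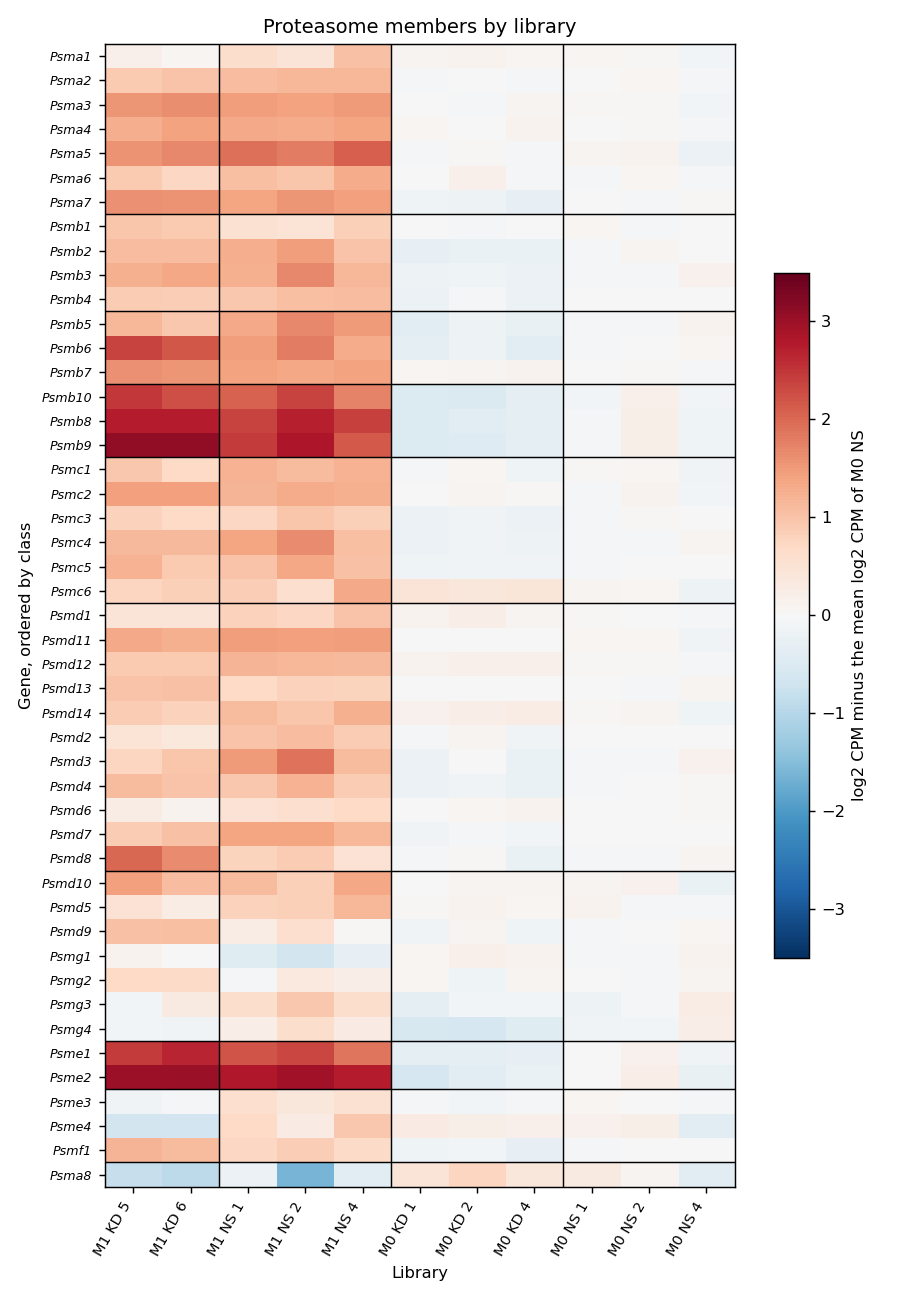
Log2 CPM of each of the 47 tested members (rows, by class) in each library (columns), as the difference from the mean log2 CPM of M0 NS. The M1 libraries are redder over nearly all rows, most of all for Psmb8, Psmb9, Psmb10, Psme1 and Psme2, while Psme4 is blue in both M1 KD libraries and red in the M1 NS libraries.

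All 7 subunits of the alpha ring, the gate of the barrel, were called higher in M1 NS, with log2 fold changes between 0.72 for Psma1 and 1.94 for Psma5. The 4 structural beta subunits were also called higher (0.63 to 1.38), as were the 6 ATPases of the cap (0.84 to 1.39) and its 11 other subunits (0.60 to 1.53). In the cap these included Psmd14, the deubiquitinase that removes the ubiquitin chain (1.12), and Psmd4, a ubiquitin receptor (1.02). The chaperones that put the particle together were mixed, with 4 of 7 called higher and Psmg1, a chaperone of alpha ring assembly, called lower. Psmg1 stood at 6.05, 5.23 and 6.65 CPM in M1 NS and at 7.71, 7.96 and 8.83 CPM in M0 NS, so that the groups did not overlap. Its log2 fold change was -0.45 ± 0.14 (SE, adjusted p = 0.0194 by edgeR), and the call was lost without M0 NS replicate 4 or M1 NS replicate 2. Psma8, Psmd9 and Psmg2 were not called.

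The immunosubunits rose most among the catalytic genes. Psmb8, the counterpart of the chymotrypsin-like Psmb5, had 935 and 926 CPM in M1 KD, 709, 912 and 727 CPM in M1 NS, 100.5, 105 and 113 CPM in M0 KD, and 133, 161 and 125 CPM in M0 NS. Psmb9, which replaces the caspase-like Psmb6, had 459.7 and 465 CPM in M1 KD, 290.1, 378 and 235 CPM in M1 NS, 38.4, 39.6 and 43.2 CPM in M0 KD, and 51.7, 62.1 and 48.1 CPM in M0 NS. Psmb10, which replaces the trypsin-like Psmb7, had 579 and 500.2 CPM in M1 KD, 439, 541 and 352 CPM in M1 NS, 74.8, 73.5 and 84.9 CPM in M0 KD, and 98.1, 119.9 and 98.6 CPM in M0 NS. Every M1 library lay above every M0 library for each of the 3 genes. In M1 NS against M0 NS the log2 fold change was 2.49 ± 0.16 for Psmb8 (a 5.60-fold rise), 2.48 ± 0.18 for Psmb9 and 2.07 ± 0.17 for Psmb10, with edgeR adjusted p of 1.03e-07, 2.88e-07 and 9.73e-07 in that order.

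The constitutive catalytic subunits rose as well. Psmb5 had 186 and 160.1 CPM in M1 KD, 207, 266 and 234 CPM in M1 NS, 63.6, 73.2 and 68.8 CPM in M0 KD, and 79.4, 79.0 and 91.3 CPM in M0 NS. Psmb6 had 673 and 591 CPM in M1 KD, 362, 453 and 326 CPM in M1 NS, 106, 116 and 99.8 CPM in M0 KD, and 127, 130.1 and 137 CPM in M0 NS. Psmb7 had 202 and 193 CPM in M1 KD, 178, 169 and 176 CPM in M1 NS, 69.4, 71.2 and 72.9 CPM in M0 KD, and 67.0, 69.1 and 63.9 CPM in M0 NS. Again no M1 library overlapped an M0 library, and the log2 fold changes in M1 NS against M0 NS were 1.502 for Psmb5, 1.53 for Psmb6 and 1.39 for Psmb7, all below those of the immunosubunits.

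**Figure D2:**
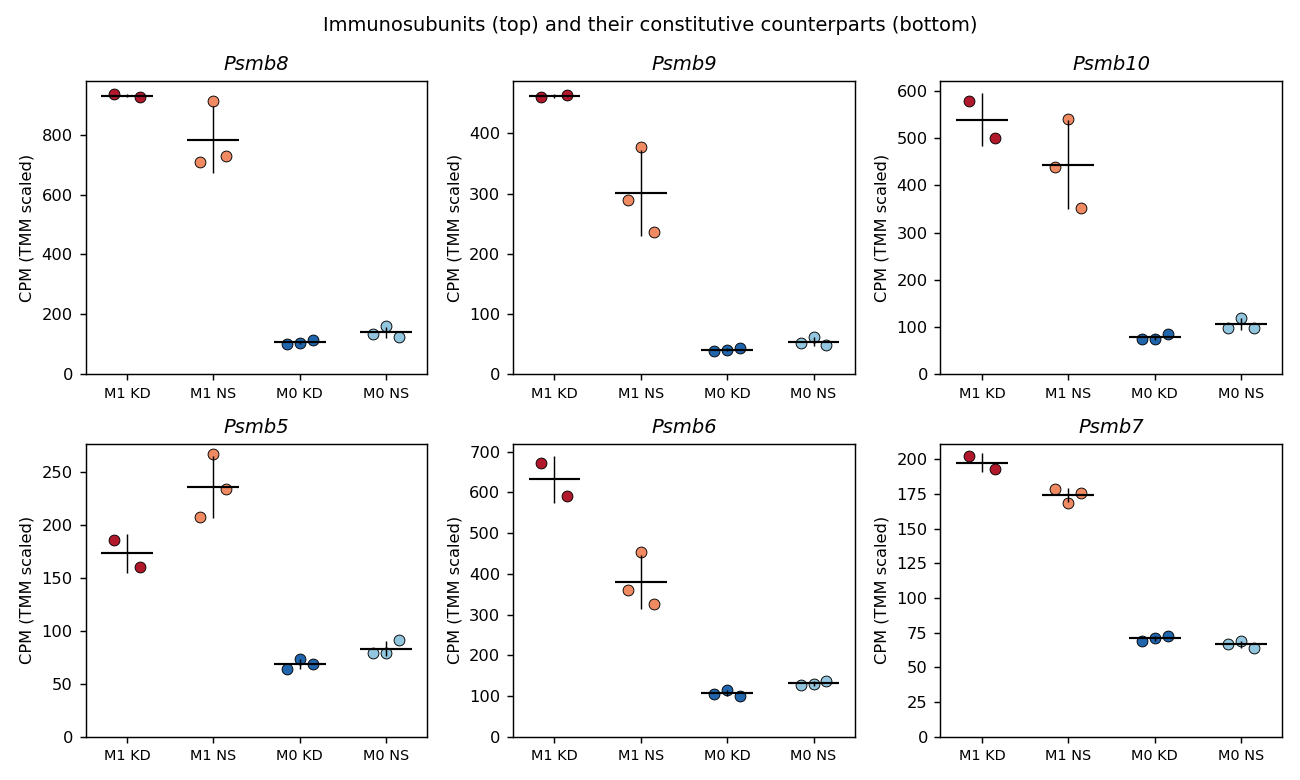
CPM (TMM scaled) of the 3 immunosubunits (top) and of the constitutive subunits they replace (bottom) in each library, with the group mean (line) and SD (bar). All M1 points lie above all M0 points in each panel, and Psmb5 is the only one of the 6 genes whose M1 KD points lie below the M1 NS points.

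The ratio of raw counts between the paired subunits needs no scaling between libraries. Psmb8 over Psmb5 was 5.03 and 5.79 in M1 KD, 3.42, 3.42 and 3.11 in M1 NS, 1.58, 1.43 and 1.64 in M0 KD, and 1.67, 2.04 and 1.37 in M0 NS. Psmb9 over Psmb6 was 0.683 and 0.786 in M1 KD, 0.802, 0.835 and 0.722 in M1 NS, 0.362, 0.341 and 0.433 in M0 KD, and 0.408, 0.477 and 0.350 in M0 NS. Psmb10 over Psmb7 was 2.86 and 2.60 in M1 KD, 2.46, 3.21 and 2.003 in M1 NS, 1.08, 1.03 and 1.16 in M0 KD, and 1.46, 1.74 and 1.54 in M0 NS. All 3 ratios lay higher in every M1 NS library than in every M0 NS library, with log2 differences of 0.99, 0.94 and 0.67 in the order given. The exact two-sided permutation test, whose p was 2 times the one-sided p, gave p = 0.1 for each, the smallest that 3 libraries against 3 allow. Between M1 KD and M1 NS only the Psmb8 over Psmb5 ratio did not overlap, being higher in M1 KD by 0.70 on the log2 scale. The same exact permutation test gave p = 0.2, the smallest that this form of it allows for 2 against 3. Between M0 KD and M0 NS only the Psmb10 over Psmb7 ratio did not overlap, with a log2 difference of -0.53 (exact permutation p = 0.1). With 12 such comparisons none could pass an adjustment.

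**Figure D3:**
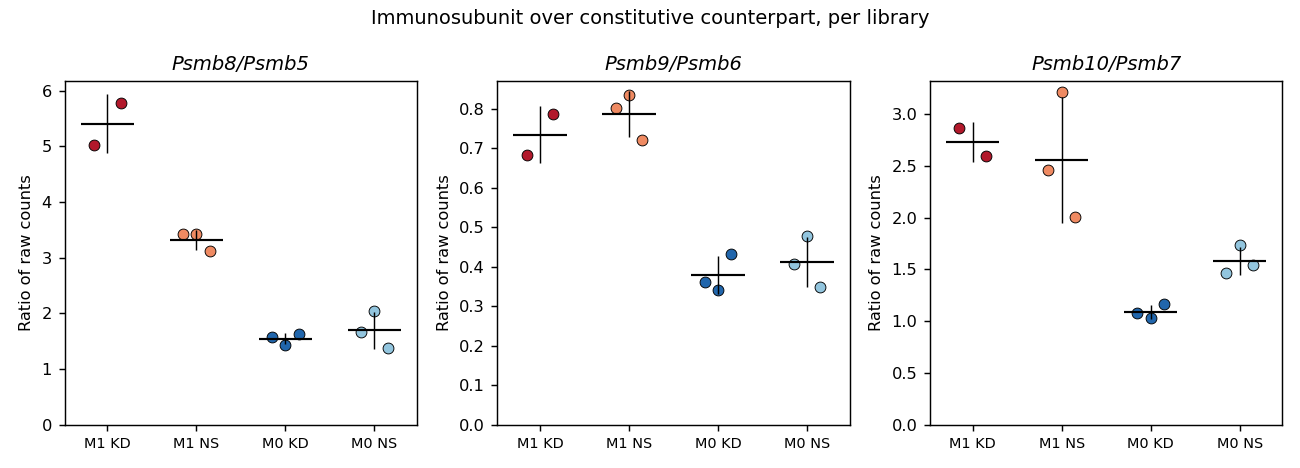
Ratio of raw counts of each immunosubunit to its constitutive counterpart (y axis, from 0) per library, with the group mean (line) and SD (bar). Psmb8 over Psmb5 runs from 5.03 to 5.79 in M1 KD, above the 3.11 to 3.42 of M1 NS, while the other ratios overlap between these groups.

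Levels between genes were compared per kilobase of the principal transcript (CPM per kb). On that scale Psmb8 made up 74.8% ± 1.9 of the Psmb8 and Psmb5 pair in M1 KD (SD, n = 2), 64.7% ± 1.3 in M1 NS, 46.1% ± 1.7 in M0 KD and 48.0% ± 5.0 in M0 NS (SD, n = 3 each). With the combined length of all annotated exons, chosen after the data were seen, the same shares were 58.9%, 46.9%, 29.2% and 30.9%, so their order held while their level depended on the length used. Psme2 had the highest mean level per kb of all members in both M1 groups, 1234 ± 16 in M1 KD and 1106 ± 80 in M1 NS. Psmb6 led in both M0 groups, with 134 ± 10 in M0 KD and 165 ± 7 in M0 NS, and Psme2 followed with 117 ± 14 and 156 ± 26 in the same order. The values of Psmb6 and Psme2 overlapped between libraries in both M0 groups, at 125 to 145 and 102 to 131 in M0 KD and at 159 to 172 and 129.8 to 183 in M0 NS.

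Psme1 and Psme2, which form the interferon-inducible activator ring on the end of the core, rose with the immunosubunits. Psme1 had 772 and 890.4 CPM in M1 KD, 649, 715 and 517 CPM in M1 NS, 113, 110.2 and 116 CPM in M0 KD, and 138, 155 and 129.5 CPM in M0 NS. Psme2 had 1176 and 1198 CPM in M1 KD, 1036, 1151 and 1006 CPM in M1 NS, 98.1, 115 and 126 CPM in M0 KD, and 149.9, 176 and 125 CPM in M0 NS. The M1 and M0 ranges did not overlap for either gene. In M1 NS against M0 NS the edgeR log2 fold change was 2.15 ± 0.15 for Psme1 and 2.83 ± 0.17 for Psme2, the largest of all members. The other activators rose less, by 0.51 on the log2 scale for Psme3, the nuclear activator, and by 0.65 for Psme4, the large single-chain activator. Psme2b, a near copy of Psme2 that is no member, had 67.4 and 61.8 CPM in M1 KD and 79.9, 81.2 and 85.4 CPM in M1 NS, and the sources used here do not say how shared reads were counted.

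Core genes had the larger median rise and cap genes the smaller, a difference that was not tested. The 14 core subunits other than the immunosubunits had a median log2 fold change of 1.36 in M1 NS against M0 NS, and the 17 cap subunits one of 1.12, with all 31 called higher. The summed CPM of these core genes over that of the cap genes was 1.03 and 1.07 in M1 KD, 0.933, 0.926 and 1.02 in M1 NS, 0.776, 0.765 and 0.791 in M0 KD, and 0.818, 0.816 and 0.804 in M0 NS. Both M1 groups lay above both M0 groups, M1 KD lay above M1 NS and M0 KD lay below M0 NS, each without overlap. These sums weight the abundant genes most, Psmb6 among them. With Psmb6 left out of the core sum, the ratios overlapped between M1 KD and M1 NS and between M0 KD and M0 NS. Both M1 groups still lay above both M0 groups.

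Between the M0 groups no gene was called in the edgeR fit of all libraries, while other fits called some. In M0 KD against M0 NS, edgeR called 0 of 47 members in either direction, as it did 0% of all genes (1947 of 15024 had an unadjusted p under 0.05, among them 6 members), and DESeq2 called 0 members, where it called 0.779% of all genes higher and 0.692% lower. The members' median was -0.05, against 0.00 for all genes. The 3 immunosubunits gave the values -0.40 for Psmb8, -0.42 for Psmb9 and -0.44 for Psmb10, with edgeR adjusted p between 0.333 and 0.357. Each of the 3 had a CPM range in M0 KD wholly below that in M0 NS, as had 17 members in all, where 17.9% of all genes did, and 7 members lay wholly above, where 17.2% did. The 95% interval of the log2 fold change ran from -0.69 to -0.11 for Psmb8, from -0.75 to -0.09 for Psmb9 and from -0.77 to -0.11 for Psmb10. Unlike the adjusted p, these intervals are not adjusted for the number of genes tested. With the trend in gene length and GC content removed, the values were -0.29 for Psmb8, -0.26 for Psmb9 and -0.22 for Psmb10. An edgeR fit of these 2 groups alone called 1 member higher and 3 lower of 47, where 3.98% of all genes were called higher and 4.08% lower, with Psmb10 at -0.43 (edgeR adjusted p = 0.0412) and Psmb9 at -0.41 (adjusted p = 0.0491) among those lower.

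The 11 neutrophil and precursor markers had a lower sum in M0 KD than in M0 NS, though edgeR called 0 of them in this comparison. Their summed level was 669 to 711 CPM in M0 KD, against 1245 to 2201 CPM in M0 NS, and their part in the values of the immunosubunits was not tested. In M1 cells the same sum was 198 to 207 CPM in M1 KD, against 236 to 309 CPM in M1 NS. Lcn2 was its largest part in every M1 library, at 186 and 116 CPM in M1 KD and 138, 132 and 138 CPM in M1 NS. In M1 KD against M1 NS, edgeR called 3 of the 11 lower and 0 higher, with a median log2 fold change of -0.81. Of all tested genes 19.2% were called lower in that comparison and 17.6% higher. Of these 11 markers, 10 were called lower and 0 higher in M1 NS against M0 NS, with a median log2 fold change of -3.90. The share of all tested genes called lower there was 28.6%. The part of these markers in the state difference was not tested. The 7 dendritic cell markers summed to 133 to 618 CPM in M1 KD, 107 to 341 CPM in M1 NS, 7.38 to 15.3 CPM in M0 KD and 12.4 to 12.9 CPM in M0 NS, a sum that Ccr7 carried in the M1 groups, with 112 and 581 CPM in M1 KD and 279, 321 and 89.8 CPM in M1 NS. In M1 NS against M0 NS, 4 of these 7 markers were called higher and 2, Flt3 and Siglech, lower, and their part in the state difference was not tested. The 7 lymphocyte markers summed to at most 1.15 CPM in any library, the 5 stromal markers to at most 26.5 CPM and the 4 mast cell and basophil markers to at most 2.86 CPM, with Fcer1a at 0 in every M1 library.

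In M1 cells the members moved in both directions with the MERRICAL gapmer. The labels number the M1 KD libraries 5 and 6 and those of every other group 1, 2 and 4. What the numbers stand for is not stated. In each comparison that holds M1 KD, a difference between these sets cannot be told apart from the effect compared. In M1 KD against M1 NS, 7 of 47 members were called higher and 12 lower by edgeR, where 17.6% of all tested genes were called higher and 19.2% lower, so neither share of members stood far from that of all genes. The members' median was -0.15, against 0.00 for all genes. With upper-quartile factors, which moved the median of all genes to 0.15, 12 members were higher and 5 lower, and 61.3% of called genes were higher, against 47.8% with TMM factors. An edgeR fit of these 2 groups alone called 3 members higher and 1 lower, where 11.5% of all genes were called higher and 11.4% lower. The CPM ranges lay apart for 16 members above and 20 below, where 26.1% and 26.3% of all genes did.

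Psmd8, a subunit of the lid of the cap, changed most among the members that rose. It had 514 and 404 CPM in M1 KD, against 220.0, 239 and 182 CPM in M1 NS. Both M1 KD libraries lay above all M1 NS libraries, and the log2 fold change was 1.10 ± 0.16 (edgeR adjusted p = 0.000306). In M0 cells Psmd8 had 122, 132 and 110.2 CPM in M0 KD, against 123, 126 and 137 CPM in M0 NS, and these ranges overlapped.

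Psmb6 followed, with the CPM values given above and a log2 fold change of 0.73 ± 0.16 (edgeR adjusted p = 0.00376). Psmd9, a chaperone of the cap's ATPase ring, had 41.4 and 41.9 CPM in M1 KD, against 24.4, 30.6 and 20.96 CPM in M1 NS. The ranges did not overlap, and the log2 fold change was 0.72 ± 0.16 (edgeR adjusted p = 0.00376). In M1 KD the further called rises were those of Psmb9 at 0.62 (adjusted p = 0.0214), of Psmg1 at 0.52 and Psmg2 at 0.50, which act as a pair in alpha ring assembly, and of Psmf1, an inhibitor of the core, at 0.39. The Psmb9 call was lost without M1 NS replicate 1 (adjusted p = 0.0625), without M1 KD replicate 5 (0.0814) and without M1 KD replicate 6 (0.0763).

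Psme4 had the largest fall. It had 74.3 and 73.0 CPM in M1 KD, against 186, 142 and 222 CPM in M1 NS. The ranges did not overlap, and the log2 fold change was -1.32 ± 0.21 (edgeR adjusted p = 0.000546), a 2.49-fold lower level. In M0 cells Psme4 had 143, 134 and 132 CPM in M0 KD, against 128, 134 and 90.1 CPM in M0 NS, so that M1 KD lay below every other group.

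Psmd3, a scaffold subunit of the lid, had 131 and 152 CPM in M1 KD, against 219, 289.9 and 168 CPM in M1 NS, with a log2 fold change of -0.67 ± 0.20 (edgeR adjusted p = 0.0221). Psmg3, a chaperone of alpha ring assembly, had 6.53 and 8.70 CPM in M1 KD, against 10.8, 13.3 and 10.6 CPM in M1 NS, with a log2 fold change of -0.60 ± 0.20 (adjusted p = 0.0330). For both, the ranges did not overlap. The Psmd3 call was lost without M1 KD replicate 5 (adjusted p = 0.141) or M1 NS replicate 2 (0.0530), and the Psmg3 call without the same libraries (0.234 and 0.0822). Psma1, Psme3, Psmd2 and Psmd5 also fell, by 0.56 to 0.60 on the log2 scale, as did Psmg4, Psmb5, Psmd6, Psmd1 and Psmd7 by 0.35 to 0.49.

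**Figure D4:**
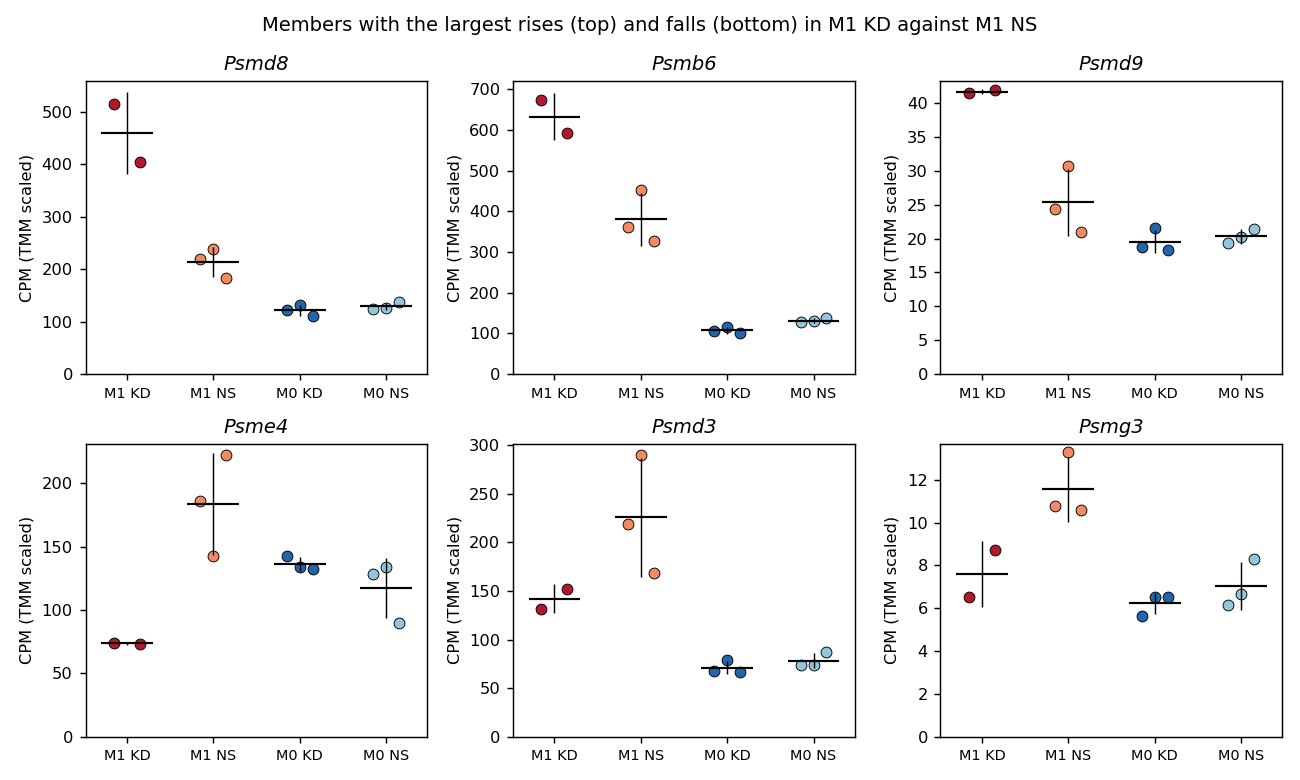
CPM (TMM scaled) per library of the 3 members with the largest called rise (top) and the 3 with the largest called fall (bottom) in M1 KD against M1 NS, with group mean (line) and SD (bar). The genes were picked for this contrast, so its separation is a description. Psmd8, Psmb6 and Psmd9 show M1 KD above all other groups and Psme4 shows it below them.

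By class, the cap subunits other than the ATPases had 1 call up and 5 down of 11 in M1 KD against M1 NS. The 6 ATPases had 0 called, 1 of them with a value above 0. Of all tested genes 17.6% were called higher and 19.2% lower, and the class counts were not tested against these shares. Among the constitutive catalytic genes Psmb6 rose, Psmb5 fell with -0.45 ± 0.15 (edgeR adjusted p = 0.0330) and Psmb7 had 0.18, not called. The Psmb5 call was lost without any single one of 4 libraries, M0 NS replicate 1, M1 NS replicate 2, M1 NS replicate 4 or M1 KD replicate 6, with adjusted p between 0.0502 and 0.184. The remaining immunosubunits had 0.25 for Psmb8, with a 95% interval from -0.07 to 0.57, and 0.28 for Psmb10, from -0.08 to 0.64. Psme1 had 0.41 (edgeR adjusted p = 0.0684) and Psme2 0.16.

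**Figure D5:**
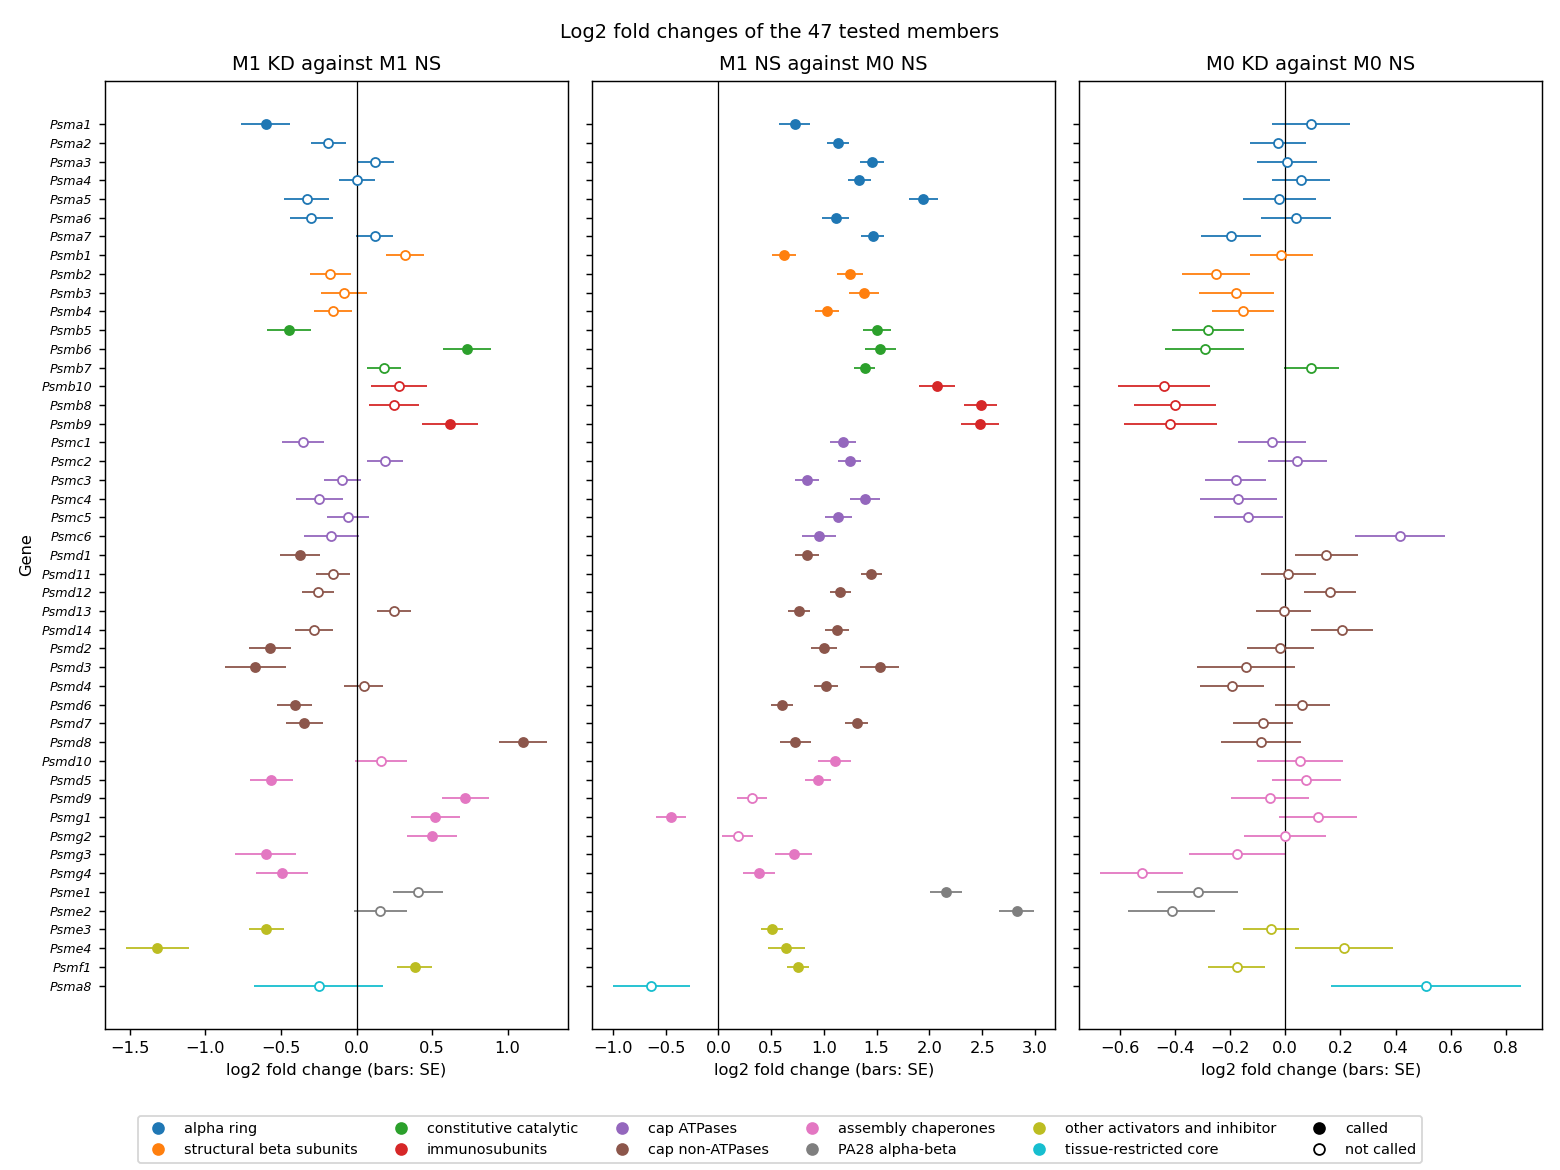
Log2 fold change with its SE for the 47 tested members, coloured by class, in M1 KD against M1 NS (left), M1 NS against M0 NS (middle) and M0 KD against M0 NS (right), where filled points were called. The 3 panels have different x scales. M1 NS against M0 NS shifts nearly all members to the right, M1 KD against M1 NS spreads them to both sides and M0 KD against M0 NS has no filled point.

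With the MERRICAL gapmer in both states, most members again differed between the states. In M1 KD against M0 KD, edgeR called 36 members higher and 2 lower, where 26.9% of all genes were called higher and 31.4% lower, and the members' median was 1.04 against -0.11 for all genes. With scaling by library size alone the median of all genes was -0.60 and that of the members 0.56, and 25.1% of called genes were higher, against 46.1% with TMM factors. This comparison shares no library with M1 NS against M0 NS, and 34 members were called higher in both, 79.1% of the 43 and 94.4% of the 36. The like overlap over all genes is not given here, so these shares only describe the members. The largest rises were those of Psmb9 at 3.52 ± 0.19, Psme2 at 3.39 ± 0.18 and Psmb8 at 3.14 ± 0.17. Psme4 was called lower at -0.89 ± 0.20 (adjusted p = 0.00257), and so was the sparse Psma8 at -1.39 ± 0.42. CPM ranges lay apart for 41 members above and 2 below, where 34.4% and 40.6% of all genes did.

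The effect of the gapmer in M1 was set against that in M0 by an interaction term, which shares its libraries with the comparisons above. It called 8 members higher and 8 lower by edgeR, where 13.1% of all genes were called higher and 14.2% lower. Neither share of members stood far from that of all genes. Of all called genes, 38.5% were higher with library size alone and 59.2% with upper-quartile factors, against 48.0% with TMM factors. Psmd8 (1.19 ± 0.22), Psmb9 (1.04 ± 0.25) and Psmb6 (1.03 ± 0.21) had the largest positive differences. Psme4 (-1.53 ± 0.27), Psma1 (-0.69 ± 0.21) and Psmd5, a chaperone of the cap's ATPase ring (-0.64 ± 0.19), had the largest negative ones. Psma1 had 138 and 129.6 CPM in M1 KD, 189, 169.7 and 251 CPM in M1 NS, 130.4, 134 and 129.8 CPM in M0 KD, and 128, 126 and 115 CPM in M0 NS. Psmd5 had 42.2 and 35.8 CPM in M1 KD, 52.7, 53.1 and 67.3 CPM in M1 NS, 30.6, 32.5 and 31.6 CPM in M0 KD, and 32.4, 28.4 and 29.1 CPM in M0 NS. For both genes M1 KD lay below M1 NS without overlap. The Psma1 call was lost without any single one of 8 libraries (adjusted p up to 0.0914) and the Psmd5 call without any of 4 (up to 0.0996). Psmb10 at 0.72, Psmb8 at 0.65 and Psme1 at 0.72 were called at edgeR adjusted p of 0.0479, 0.0468 and 0.0292. With the trend in gene length and GC content removed, these 3 became 0.32 (adjusted p = 0.274), 0.41 (0.139) and 0.32 (0.242). Across the 47 members the Spearman correlation between transcript length and log2 fold change was 0.45 in M0 KD against M0 NS and -0.17 in M1 KD against M1 NS, given as a description since all members share the libraries.

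Several limits bear on single members. The sources used here give no strand setting for the counting, and in GENCODE M21 exons on the opposite strand overlap those of Psmb7 (Nek6, 405 bases), Psmb8 (Gm20496, 498 bases), Psmb9 (Tap1, 212 bases), Psmd9 (Gm26745, 1849 bases) and Psme1 (Emc9, 14 bases). Such overlaps are also annotated for Psmd13 (Sirt3, 342 bases), Psmd1 (Htr2b, 252 bases) and Psmc3 (Slc39a13, 215 bases). Shorter ones are those of Psma4 (114 bases), Psma5 (60 bases) and Psmd3 (17 bases). Reads of such partners cannot be told apart without strand. The annotation names 1 pseudogene of Psmb5, 2 of Psmb6 and 1 of Psmb7.

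Genes around the proteasome were followed in 6 lists. For M1 NS against M0 NS the shares of all tested genes called were 26.9% higher and 28.6% lower. In M1 NS against M0 NS, 7 of 8 proteasome-associated factors were called higher and none lower, among them Psme2b (1.82) and Pomp, the chaperone that matures the core (1.10). Of the interferon regulators 10 of 12 were called higher and 1 lower, with Socs1, a feedback inhibitor, at 7.13, Jak2 at 3.33 and the receptor chain Ifngr1 at -2.46. Irf1 rose by 3.37 and Nlrc5, the activator of class I genes, by 3.33 on the log2 scale. Of the peptide loading genes 6 of 9 were called higher and none lower, with Tap2 at 2.74 and the tapasin-like Tapbpl at 2.56. Of the ubiquitin genes and shuttle receptors 9 of 13 were called higher and 2 lower, with Nploc4 at 1.24, Ufd1l at 0.86, Ubqln2 at -0.72 and Rps27a at -0.57. Around Nfe2l1, the factor that drives proteasome genes when proteasome activity falls, 4 of 8 were higher, with Nfe2l1 itself at 1.25, Mafk at 1.62 and Maff at 3.28, and 2 were lower, the protease Ddi2 at -1.11 and Bach1 at -0.48. Of the cytosolic peptidases 3 of 7 were higher, with Lap3 at 2.12 and Nrd1 at 0.62.

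In M1 KD against M1 NS the same lists were split, where 17.6% of all tested genes were called higher and 19.2% lower. Irf1 had 4485 and 3440.1 CPM in M1 KD, against 1343, 1599.6 and 1118 CPM in M1 NS, with a log2 fold change of 1.55 (edgeR adjusted p = 0.00015). Nlrc5 had 322 and 354 CPM in M1 KD, against 601, 629 and 473 CPM in M1 NS, with a log2 fold change of -0.75 (adjusted p = 0.0272). The ranges did not overlap for either regulator, and they moved in opposite directions. Irf8 rose by 1.91. In all, 3 of 12 interferon regulators were called higher and 1 lower. Of the cytosolic peptidases 0 were higher and 4 of 7 lower, with Tpp2 at -1.003 and Blmh at -0.56. Of the peptide loading genes 0 were higher and 2 of 9 lower, the endoplasmic reticulum chaperones Calr at -0.88 and Canx at -0.77. Of the ubiquitin list 3 of 13 were higher, with Rps27a at 0.83, and 4 lower, with Ubqln2 at -0.85 and Vcp, the unfoldase, at -0.64. In the Nfe2l1 list Nfe2l2 was higher at 0.64, Mafg (-0.98) and Ddi2 (-0.76) were lower, and Nfe2l1 had -0.22, not called. Of the associated factors Uchl5 was higher at 0.55, AI314180 (-0.65) and Usp14 (-0.50) were lower, and Pomp had 0.18, not called. In M0 KD against M0 NS none of these genes was called by edgeR, with Irf1 at -0.39 and Nlrc5 at -0.14.

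Between the states with the MERRICAL gapmer, M1 KD against M0 KD, edgeR called 10 of 12 interferon regulators higher and 1 lower, 5 of 9 peptide loading genes higher and 2 lower, and 8 of 13 ubiquitin genes higher and 1 lower. It called 4 of 8 associated factors higher and 1 lower, 4 of 8 genes around Nfe2l1 higher and 3 lower, and 1 of 7 peptidases higher and 3 lower. Of all tested genes 26.9% were called higher and 31.4% lower. The interaction term called 3 of 12 interferon regulators, 4 of 13 ubiquitin genes and 1 of 8 genes around Nfe2l1 higher. The share of all tested genes it called higher was 13.1%. The same term called 4 of 7 peptidases lower, and 2 genes lower in each of the ubiquitin, Nfe2l1, peptide loading and associated factor lists. The share of all tested genes it called lower was 14.2%.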

How the data were processed

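RNA sequencing libraries of mouse BMDM were compared in the 4 groups of the labels. The tools named are STAR 2.5.2b, Trimmomatic 0.36 and Subread 1.5.2 with its featureCounts, and the build GRCm38, per the submitters' processing notes. The deposited table holds raw counts per gene, used unchanged; 1 entry with a blank name, at most 0.000305% of a library's counts, was left out, and the second, normalized table was not used. Genes were filtered with filterByExpr (minimum count 10, minimum total 15), scaled by TMM and tested with edgeR 4.0.16 in R 4.3.3 (quasi-likelihood, robust, 1 coefficient per group, all 11 libraries, since M1 KD has 2), with Benjamini-Hochberg adjustment. The procedure was tested on simulated data in which few genes changed, in M1 NS alone. That setting differs from these data, so it does not test the scaling between the states. Alternatives used DESeq2 1.42.0, limma 3.58.1 (voom), other factors and filters. Levels per kb used GENCODE M21 principal transcripts. Members in full were the catalytic subunits, Psme1, Psme2 and the 3 largest called rises and falls per comparison with mean log2 CPM not under 3; from each list, the 2 called genes with the smallest p per direction, and Irf1, Nlrc5, Nfe2l1 and Pomp; some genes that the rule names are not reported here. Others were named after their values were seen. Members and lists were chosen with earlier results of these data known. The SE of a log2 fold change was its size divided by the square root of the F of its edgeR test. Intervals are log2 fold change with a 95% normal interval from this SE, not adjusted for the number of genes tested.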

Additional observations from a re-analysis of the deposited data

Results flagged for a closer look

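The gapmer's effect differed between the M1 and the M0 state by the interaction term (edgeR, adjusted p under 0.05) for 16 members. These were 8 higher and 8 lower of 47 tested, where 13.1% of all tested genes were called higher and 14.2% lower. Neither share of members stood far from that of all genes. The term holds M1 KD, whose replicate numbers no other group has. A difference between these sets of libraries cannot be told apart from the gapmer's effect. The difference, M1 minus M0 on the log2 scale, was positive for Psmd8 (1.19), Psmb9 (1.04), Psmb6 (1.03), Psmd9 (0.77), Psmb10 (0.72), Psme1 (0.72), Psmb8 (0.65) and Psmf1 (0.56). It was negative for Psme4 (-1.53), Psma1 (-0.69), Psmd5 (-0.64), Psmd2 (-0.55), Psme3 (-0.55), Psmd1 (-0.52), Psmd6 (-0.47) and Psmd12 (-0.42).

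Among the 13 named genes of the surrounding lists it was positive for Irf8 (2.14), Irf1 (1.94) and Nfe2l2 (0.64). It was negative for Tpp2 (-1.38), Usp14 (-0.996), Canx (-0.95), AI314180 (-0.88), Ubqln2 (-0.85), Ddi2 (-0.84), Mafg (-0.84), Calr (-0.81), Ide (-0.68) and Vcp (-0.64). Groups of 2 or 3 libraries are too small for a search for outlying libraries.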

How the results depend on the processing

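Counts of called members in M1 NS against M0 NS and in M1 KD against M0 KD kept within 1.5 times of 43 and 36 higher under every alternative run. Left-out libraries gave 42 to 44 higher and 0 to 1 lower in M1 NS against M0 NS, 35 to 40 higher and 1 to 2 lower in M1 KD against M0 KD, 3 to 8 higher and 5 to 11 lower in M1 KD against M1 NS, 4 to 9 higher and 2 to 9 lower for the interaction, and 0 in M0 KD against M0 NS. A lone library left in M1 KD was assumed to vary like the others. In M1 KD against M1 NS, 3 higher and 7 lower were left without M1 KD replicate 5, 4 and 5 without replicate 6, and 3 higher without M1 NS replicate 1. For the interaction the 8 higher and 8 lower became 5 and 3 without M0 NS replicate 1 or M1 KD replicate 5, 5 and 2 without M0 NS replicate 2, M0 KD replicate 1, M0 KD replicate 2 or M1 KD replicate 6, 5 and 4 without M1 NS replicate 1, 4 and 3 without M0 KD replicate 4, and 2 lower without M0 NS replicate 4.

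Upper-quartile factors gave 12 higher and 5 lower in M1 KD against M1 NS and 1 lower for the interaction, where median-of-ratios factors gave 4 lower. Library size alone gave 2 lower in M1 NS against M0 NS and 6 lower in M1 KD against M0 KD. Without a filter, 0 were lower in M1 NS against M0 NS, 4 higher and 6 lower in M1 KD against M1 NS and 2 lower for the interaction. DESeq2 gave 11 higher in M1 KD against M1 NS. Fits of the compared groups alone gave 0 lower in M1 NS against M0 NS, 1 higher and 3 lower in M0 KD against M0 NS, and 3 higher and 1 lower in M1 KD against M1 NS. An adjusted p under 0.01 gave 0 lower in M1 NS against M0 NS, 3 higher and 4 lower in M1 KD against M1 NS, 1 lower in M1 KD against M0 KD, and 2 higher and 1 lower for the interaction. With the length and GC trend removed, 2 were lower in M1 NS against M0 NS and 5 higher for the interaction. The causes were not tested.

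Psmd8, Psmb6, Psmd9 and Psme4 stayed called in M1 KD against M1 NS in each alternative run, with adjusted p up to 0.00891, 0.0408, 0.0329 and 0.00718. Psmb7, not called, changed sign in M0 KD against M0 NS (0.09) with the trend removed (-0.12) and with the replicate block and the trend removed (-0.13), and in the interaction (0.09) with library size alone (-0.015). Of 1120 values of named members under alternatives, 1029 kept their direction and side of the threshold, 76 lost a call and 12 gained one. Whether equal replicate numbers pair the libraries is not stated, and these values do not settle it. Deviations from the group means correlated at 0.135, 0.0221 and 0.124 between M0 KD and M0 NS libraries of equal number. Unequal numbers in these groups gave -0.133 to 0.0323. Between M1 NS and M0 NS, equal numbers gave 0.0899, -0.0752 and -0.0825, and unequal numbers gave -0.142 to 0.173. With the replicate block, 42 members were higher and 1 lower in M1 NS against M0 NS and 0 were called in M0 KD against M0 NS. No paired analysis was possible because M1 KD shares no number with the other groups for the comparisons that hold it. The M1 KD group of 2 libraries limits the precision of each result that rests on it.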
